A study of Mus musculus with 10 samples.

Results

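The dorsal and ventral zone genes of the mouse olfactory epithelium examined here are Nqo1 and Acsm4, which mark the dorsal zone, Ncam2, which marks the ventral zones, and Nfia, Nfib and Nfix, which encode the zonal factors of the nuclear factor I (NFI) family. They were taken by name, not by their values, and are 6 of the 24421 rows of the gene count table. All 6 were among the 17197 genes with enough counts to be tested. The RNA came from whole main olfactory epithelium (MOE), the sheet of the nose in which olfactory sensory neurons (OSNs) lie, taken 14 days after birth from mice labelled C57BL/6. The study describes its several lines as of mixed C57BL/6J and 129 background. The 3 genotypes were wild type (WT, 3 libraries), heterozygous (het, 3 libraries) and homozygous (homo, 4 libraries) for the TAAR enhancer 1 and 2 double knockout, in which CRISPR-Cas9 had removed both enhancers of the trace amine-associated receptor (Taar) genes. Het mice carried the deletions on 1 allele and homo mice on both. All animals were littermates of 1 established double knockout line, with no transgene or Cre. Mice of both sexes were used in the study, and the labels do not give the sex of each animal.

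As background, each OSN expresses 1 receptor gene, and the choice is limited by where the neuron lies, so that the epithelium is divided into zones from dorsal to ventral. The dorsal zone holds most types of Taar neuron and nearly all neurons with class I odorant receptors, and the enzymes made by Nqo1 and Acsm4 are found there. Neurons with Taar6, Taar7a or Taar7b lie more ventrally. Ncam2, an adhesion molecule on OSN axons, is found in the other zones, and the NFI factors are graded towards the ventral side and take part in setting which receptors ventral neurons can use. Because Taar neurons lie mainly in the dorsal zone, the question put to these genes was whether their RNA differed between mice with and without Taar expression.

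Total counts per library ranged from 21423861 to 27712948. The 14 olfactory Taar genes together had 850 to 915 counts per WT library, 738 to 862 per het library and 2 to 5 per homo library, so the labels matched the loss of Taar RNA. Markers of OSNs were abundant in every library, with a sum over 7 mature OSN genes of 8658 to 10153 CPM (a gene's counts as a share of the library total, after TMM scaling of the totals). The sum over 4 sustentacular markers was 6066 to 7170 CPM, and that over 5 mesenchyme and bone markers was 4935 to 9809 CPM, so the tissue also held supporting cells and underlying tissue. Of the immune and blood markers, Hbb-bs was listed at 0 in all 10 libraries.

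The promoters of the 3 zone markers are shown because NFI factors bind DNA as dimers on the palindrome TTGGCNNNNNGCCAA, which is built on the core TTGGC. Each line gives the 250 bases before the RefSeq start site (GRCm38.p6, 5′ to 3′ on the strand of the gene), with each TTGGC core, on either strand, in capitals. The windows are chr8:107403206-107403455 (minus strand) for Nqo1, chr7:119689776-119690025 (plus strand) for Acsm4 and chr16:81200447-81200696 (plus strand) for Ncam2.
Nqo1: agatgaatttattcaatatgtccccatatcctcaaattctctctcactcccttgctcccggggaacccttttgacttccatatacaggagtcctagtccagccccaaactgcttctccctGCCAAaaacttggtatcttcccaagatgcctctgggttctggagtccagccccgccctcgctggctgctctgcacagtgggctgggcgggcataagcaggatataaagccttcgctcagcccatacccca
Acsm4: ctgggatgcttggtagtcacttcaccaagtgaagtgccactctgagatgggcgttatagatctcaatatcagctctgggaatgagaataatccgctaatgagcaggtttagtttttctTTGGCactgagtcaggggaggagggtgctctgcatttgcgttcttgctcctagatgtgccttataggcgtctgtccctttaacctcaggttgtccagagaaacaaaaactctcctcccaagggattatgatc
Ncam2: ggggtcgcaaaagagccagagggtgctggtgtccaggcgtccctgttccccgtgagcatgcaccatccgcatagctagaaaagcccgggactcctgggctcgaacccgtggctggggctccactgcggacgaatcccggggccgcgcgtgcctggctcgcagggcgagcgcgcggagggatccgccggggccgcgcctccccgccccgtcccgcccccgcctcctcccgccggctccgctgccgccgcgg

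The Nqo1 window held 1 TTGGC core, read as GCCAA on the gene's strand, which began at position -130 from the start site. In the Acsm4 window 1 core began at position -132. No core was found in the Ncam2 window, in which G and C made up 75.2% of the bases, against 53.2% for Nqo1 and 47.2% for Acsm4. A TTGGC core is common: 41.51% of the 32851 RefSeq promoter windows of the same length held at least 1 on either strand, so its presence in 2 of the 3 windows is a description and does not mark a binding site. The whole palindrome was in none of the 3 windows and in 0.03653% of all windows. The core TGACNNNGC of the antioxidant response element, through which NRF2 drives Nqo1 in other tissues, was in none of the 3 and in 10.16% of all. Bases farther upstream were not searched, so its absence holds for these windows only. The letters CCCNNGGG, the core bound by the OSN factors of the EBF family, began at position -17 in Acsm4 and were in 11.82% of all windows. RefSeq windows were matched for 5 of the 6 genes, and Nfib was not among them. Nfix had several windows, and a TTGGC core began at position -175 in 1 of them and at -5 in another, so the core was not limited to the dorsal genes.

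Nqo1 encodes a quinone reductase that detoxifies quinones and marks dorsal OSNs. It lies at chr8:107388225-107403206 on the minus strand (mm10), with 1 annotated transcript of 6 exons and no overlapping gene. Its level was 215, 184 and 268 CPM in the WT libraries, 193, 217 and 233 in het, and 193, 179, 237 and 207 in homo. The 3 groups overlapped, with the highest value in WT library 3 and the lowest in homo library 2. Mean levels were 222 ± 42.4 CPM (SD, n = 3) in WT, 214 ± 20.3 (n = 3) in het and 204 ± 24.8 (n = 4) in homo. The difference between homo and WT was -0.13 on the log2 scale (SE 0.12), and its 95% interval ran from -23.4% to 9.80%. The difference between het and WT was -0.053 (SE 0.13), with an interval of -20.5% to 16.9%.

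Acsm4 encodes a medium-chain acyl-CoA synthetase of the dorsal epithelium, at chr7:119690026-119714565 on the plus strand, with 1 annotated transcript of 14 exons and no overlapping gene. It had the highest counts of the 6 genes, 9998 to 13296 per library, and stood at the 98.9 percentile of all genes tested. Its level was 499, 403 and 477 CPM in WT, 470, 559 and 436 in het, and 473, 472, 546 and 420 in homo. WT library 2 was lowest and het library 2 highest, and the 3 ranges overlapped. Group means were 459 ± 50.2 CPM in WT, 489 ± 63.6 in het and 478 ± 51.8 in homo. In homo it was higher than in WT by 0.056 (log2, SE 0.12; 95% interval -12.2% to 23.1%). Het differed from WT by 0.089 (SE 0.12), with an interval of -11.2% to 27.4%. The estimates of the dorsal genes against WT had opposite signs, negative for Nqo1 and positive for Acsm4, and every interval included 0.

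Ncam2 was the ventral marker, at chr16:81200697-81626828 on the plus strand, with 20 merged exon blocks from 4 annotated transcripts. Its level was 84.8, 111 and 88.3 CPM in WT, 89.6, 112 and 95.7 in het, and 91.8, 108, 82.6 and 81.3 in homo. Library 2 was the highest of each genotype, and het was above WT in each of the 3 pairs of same-numbered libraries. Means were 94.8 ± 14.5 CPM in WT, 99.0 ± 11.5 in het and 90.9 ± 12.3 in homo. The largest contrast was between homo and het, -0.12 on the log2 scale (SE 0.12, unadjusted p = 0.315 by edgeR), with an interval of -23.0% to 9.34%. Without het library 2 it was -0.025, and without homo library 2 it was -0.22. Homo differed from WT by -0.061 (SE 0.12), with an interval of -19.6% to 14.2%. Het differed from WT by 0.063 (SE 0.13), with an interval of -13.4% to 26.0%, and by 0.067 (SE 0.063, edgeR adjusted p = 0.842) with the replicate number as a block in these libraries alone, which did not pass the test.

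**Figure D1:**
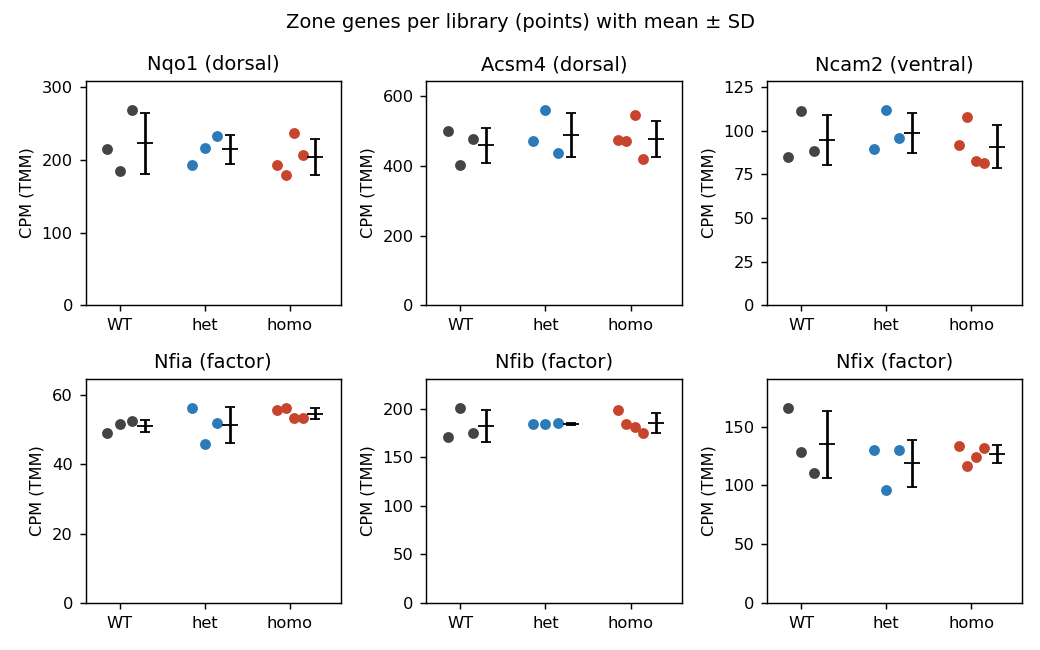
Level of each gene in CPM (TMM scaled, linear axes from 0) in every library, with points for libraries and bars for the mean ± SD of WT (n = 3), het (n = 3) and homo (n = 4). The genotypes overlap in every panel except Nfia, where the homo libraries (53.2 to 56.2 CPM) lie above the WT libraries (49.1 to 52.5 CPM) and the het libraries span both.

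Among the NFI factors, Nfia lies at chr4:97772734-98118874 on the plus strand and overlaps the antisense gene E130114P18Rik. Its level was 49.1, 51.7 and 52.5 CPM in WT, 56.1, 46.0 and 51.8 in het, and 55.5, 56.2, 53.3 and 53.2 in homo. All 4 homo libraries were above all 3 WT libraries, while het held both the second highest and the lowest value of the 10. This was the only one of the 6 genes whose groups did not overlap in a comparison. Between homo and WT 3.57% of all genes tested did not overlap either (614 of 17197), and in the comparisons with 0 of the 6 genes the shares were 5.23% (het, WT) and 3.88% (homo, het). The fitted difference between homo and WT was 0.094 (SE 0.088, unadjusted p = 0.299 by edgeR), an interval of -6.13% to 21.4%, and it did not pass the test. Group means were 51.1 ± 1.75 CPM in WT, 51.3 ± 5.11 in het and 54.6 ± 1.55 in homo.

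Nfib lies at chr4:82290173-82705750 on the minus strand. Its level was 171, 201 and 176 CPM in WT, 184, 184 and 186 in het, and 199, 184, 182 and 175 in homo. The het values lay within the ranges of both other genotypes. Means were 183 ± 16.2, 185 ± 1.00 and 185 ± 10.3 CPM. The log2 difference was 0.020 between homo and WT (SE 0.084, interval -10.3% to 14.7%) and 0.0025 between homo and het (SE 0.084, interval -11.4% to 13.3%).

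Nfix lies at chr8:84699876-84800344 on the minus strand and overlaps the antisense genes Lyl1 and G430095P16Rik. Its level was 166, 129 and 110 CPM in WT, 130, 96.1 and 130 in het, and 134, 117, 124 and 132 in homo. The values of the homo libraries lay between the extremes of the WT libraries, and het library 2 was lowest of all. Means were 135 ± 28.4 CPM in WT, 119 ± 19.6 in het and 127 ± 7.83 in homo. Nfix had the lowest p of the 18 contrasts: het differed from WT by -0.19 (SE 0.14, unadjusted p = 0.200 by edgeR), with an interval of -28.3% to 7.81%. This estimate was -0.0091 without WT library 1, -0.056 without het library 2 and -0.32 without WT library 3. Homo differed from WT by -0.093 (SE 0.13) and from het by 0.092 (SE 0.13), the latter with an interval of -11.9% to 29.0%.

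Over the 6 genes, 0 of 6 passed an adjusted p of 0.05 in any comparison (edgeR quasi-likelihood test, Benjamini-Hochberg over 17197 genes), and 0 of the 18 contrasts had an unadjusted p under 0.05. Of all genes tested, 0.0698% were called between homo and WT (12 genes, each a Taar gene and each lower in homo), 0% in het against WT and 0.0756% in homo against het. At an unadjusted p under 0.05 the shares were 2.41%, 1.92% and 2.48%. DESeq2 and limma also called 0 of the 6 genes, and the test of any difference among the genotypes likewise called 0 of 6, against 0.0698% of all genes tested (1.98% at an unadjusted p under 0.05). In homo 3 genes were above and 3 below WT, with a median log2 difference of -0.020 over the 6, beside 0.00012 over all genes tested, and in het 4 were above and 2 below, with a median of 0.012, beside -0.00088. All adjusted p-values were at least 0.999, and the 18 intervals together ran from -28.3% to 29.0%. Both outer bounds were those of Nfix, and the intervals of Nfia and Nfib between homo and WT were narrower. Each interval included 0, and with 3 or 4 libraries a group a difference inside a gene's own interval is not excluded. In whole tissue, fewer cells of a type and less RNA per cell cannot be told apart, so a level says nothing about the number of dorsal or ventral neurons by itself. With the replicate number as a block in the WT and het libraries alone, 3 of all genes were called in het, none of them among the 6.

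**Figure D2:**
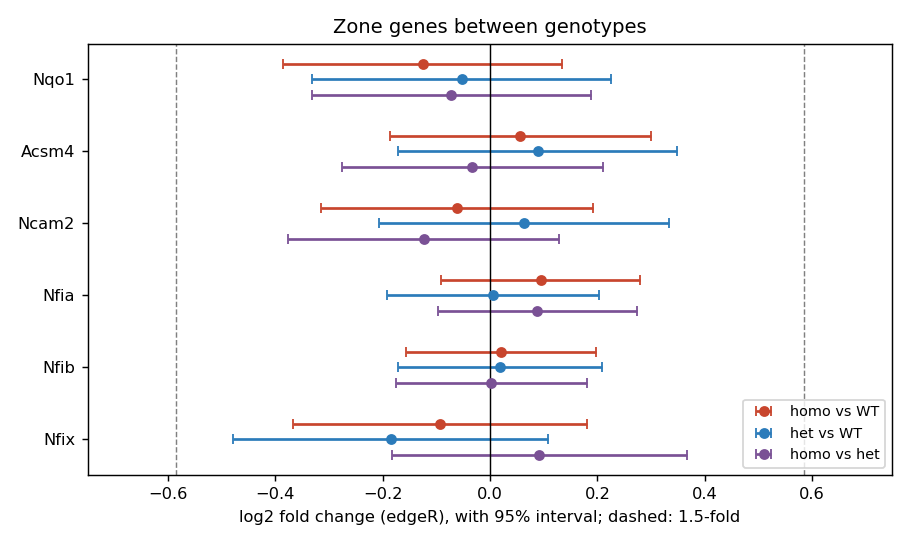
Fitted log2 fold change (x axis) of each gene (rows) in the 3 comparisons of genotypes, with points for the edgeR estimate and bars for its 95% interval. Dashed lines mark a difference of 1.5-fold, each interval includes 0, and the estimates lie between -0.19 and 0.094.

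A ratio of a dorsal to a ventral gene within 1 library does not depend on how the library was scaled. The log2 ratio of Acsm4 to Ncam2 counts was 2.56, 1.85 and 2.43 in WT, 2.39, 2.32 and 2.19 in het, and 2.37, 2.13, 2.72 and 2.37 in homo. WT library 2 was the lowest of the 10 and homo library 3 the highest, and the 3 groups overlapped. Mean log2 ratios were 2.28 ± 0.37 (SD, n = 3) in WT, 2.30 ± 0.10 (n = 3) in het and 2.40 ± 0.25 (n = 4) in homo. For Nqo1 to Ncam2 they were 1.22 ± 0.45, 1.12 ± 0.17 and 1.17 ± 0.35, and the groups overlapped again. Homo library 2 (0.73) and WT library 2 (0.73) were the lowest. Between the dorsal genes, Nqo1 was below Acsm4 in every library by 0.83 to 1.40 on this scale. The ratio of counts was not corrected for gene length and compares libraries, not genes.

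**Figure D3:**
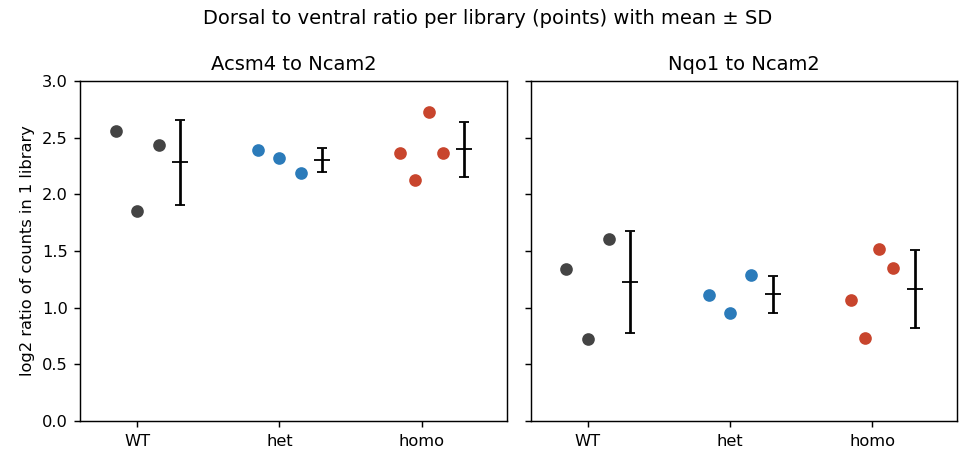
Log2 ratio of the counts of Acsm4 to Ncam2 (left) and of Nqo1 to Ncam2 (right) in each library, with points for libraries and bars for the mean ± SD. The lowest Acsm4 to Ncam2 ratio, 1.85, is in a WT library and the highest, 2.72, is in a homo library, and the 3 genotypes overlap in both panels.

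Levels of different genes were compared per kilobase, over the union of annotated exons. Acsm4 was highest with 221 CPM per kb on average over the 10 libraries (range 187 to 260), followed by Nqo1 with 137 (115 to 173). Nfix (17.2, range 13.1 to 22.6), Nfib (12.3, range 11.4 to 13.4), Ncam2 (8.34, range 7.18 to 9.87) and Nfia (4.82, range 4.22 to 5.16) followed. This order held in each of 10 libraries, and the ranges of Nfix and Nfib were the only neighbours in it that overlapped. With the longest annotated transcript as the length, a choice made after the data were seen, Nfix was above Nfib in 9 of 10 libraries and each other step held in all 10. The ventral marker thus had less RNA per kb than either dorsal marker in each library, by both lengths.

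Close relatives in the same families set these levels in context. Ncam1, the adhesion molecule found on OSNs of all zones, averaged 55.9 CPM per kb, and each of its libraries was above each of Ncam2. Acsm3, a mitochondrial acyl-CoA synthetase that neighbours Acsm4 on chromosome 7, averaged 21.3, and Acsm1 was at 1.01 to 2.48 per library. Acsm2 and Acsm5 were at most 0.0284 CPM per kb in any library and were not tested. Nfic, the NFI gene not named as zonal, was near Nfib with 11.3 (range 9.48 to 13.8), and Nqo2 averaged 3.77. Of the 7 relatives 5 were tested and 0 passed an adjusted p of 0.05 in any comparison. The lowest p among them was that of Nqo2 between het and WT (16.7 ± 1.07 against 13.7 ± 1.41 CPM, log2 difference 0.29, SE 0.13, unadjusted p = 0.0436, edgeR adjusted p = 1.00).

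**Figure D4:**
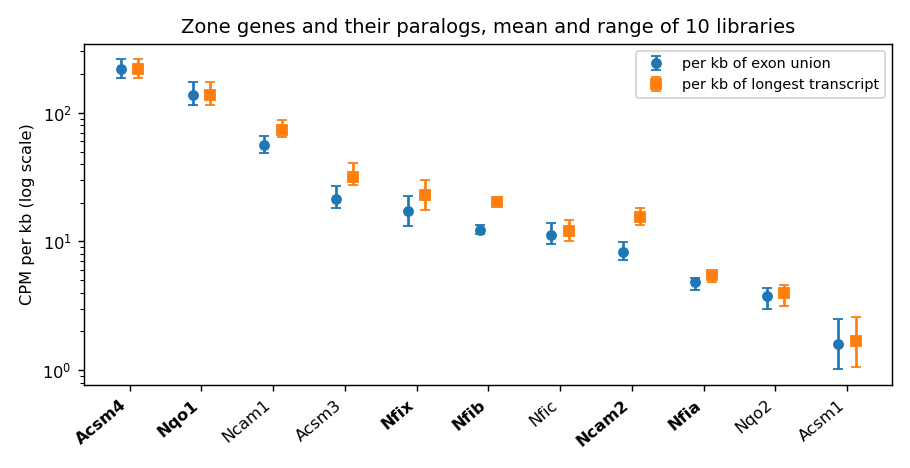
Mean level (points) and range over the 10 libraries (bars) in CPM per kb, on a log axis, for the zone genes (bold) and their tested relatives, with the length taken as the union of exons (circles) or the longest annotated transcript (squares). Acsm4 and Nqo1, with 221 and 137 CPM per kb of exon union, stand above the other 9 genes by both lengths.

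The spread between libraries of 1 genotype differed among the 6 genes. The within-genotype coefficient of variation was 16.1% for Nfix, 14.4% for Nqo1, 13.6% for Ncam2 and 11.7% for Acsm4, against 6.17% for Nfia and 6.03% for Nfib. Counting error alone gave 0.933% to 2.81%, well under these values. Among genes of similar mean level, Nfix was at the 93.9 percentile of this spread, Nqo1 at 90.0 and Ncam2 at 86.8, whereas Nfia was at 17.2 and Nfib at 20.2. The highest library exceeded the lowest 1.73-fold for Nfix, 1.5-fold for Nqo1 and 1.18-fold for Nfib.

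Summed markers of other cell types were set beside Nfix, the gene with the widest spread. WT library 1, which was highest for Nfix, also had the highest sum of the 5 mesenchyme and bone markers (Col1a1, Col1a2, Bglap, Dcn and Runx2), 9809 CPM, and het library 2, lowest for Nfix, had the lowest, 4935. Most of this sum was Col1a1 and Col1a2, 3982 and 5345 CPM in WT library 1 against 1490 and 2944 in het library 2. Bglap was also higher in WT library 1 (51.8 against 35.9 CPM). Dcn and Runx2 went the other way, at 399 and 31.6 CPM in WT library 1 and 431 and 33.6 in het library 2. By genotype the sum was 9809, 7374 and 5468 CPM in WT, 8235, 4935 and 6502 in het, and 8928, 7432, 7688 and 6688 in homo. Over the 10 libraries on the log2 scale Pearson's r was 0.861 (two-sided permutation test, p = 0.00149, adjusted p = 0.0536 over the 72 relations of 6 genes with 12 marker lists). Spearman's rho was 0.673 (permutation p = 0.0398, adjusted 0.613), and r was 0.651 without the 2 libraries farthest from the median of the sum. With genotype means removed r was 0.875. The relation was not particular to this list. The endothelial markers had r 0.752 with Nfix (permutation p = 0.012, adjusted 0.213) and rho 0.721 (permutation p = 0.0237, adjusted 0.570). Without the 2 outermost libraries their r was 0.186. The cartilage markers had r 0.656 with Nfix (permutation p = 0.0522, adjusted 0.339), and 0.0163 without 2 libraries. For Acsm4 the closest list was sustentacular (Cyp2g1, Cyp1a2, Ermn and Sec14l3), with r 0.831 (permutation p = 0.0033, adjusted 0.0792), rho 0.636 (permutation p = 0.0556, adjusted 0.613), r 0.546 without the 2 outermost libraries and 0.913 within genotypes. None of the 72 passed an adjusted p of 0.05, and the part of cell makeup in the levels of Nfix and Acsm4 was not tested.

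**Figure D5:**
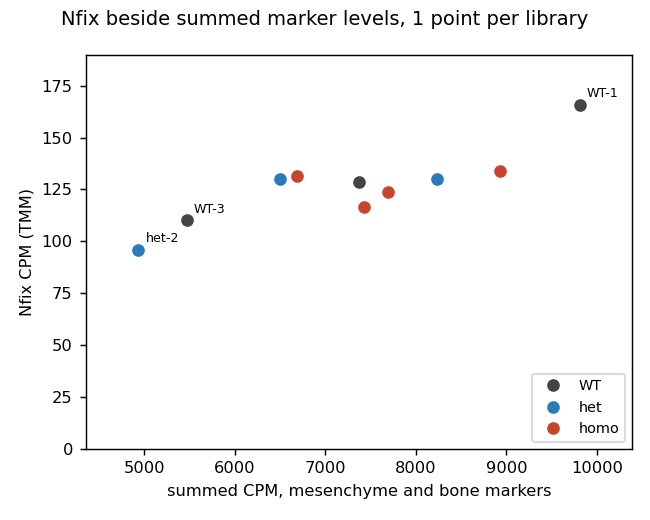
Nfix level (CPM, y axis) against the summed CPM of the mesenchyme and bone markers (x axis), 1 point per library, coloured by genotype. WT library 1 (166 CPM) is at the upper right and het library 2 (96.1 CPM) at the lower left, and the homo libraries lie between them.

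The zone genes were also compared with each other over the 10 libraries. Among the 15 pairs, Nqo1 and Acsm4, both dorsal, had r = 0.343 (permutation p = 0.331, adjusted 0.631) and rho = 0.503 (permutation p = 0.143, adjusted 0.701), with r 0.197 without the 2 outermost libraries. The pair with the highest rho was Ncam2 and Nfib, 0.794 (permutation p = 0.00928, adjusted 0.139), with r = 0.581 (permutation p = 0.0803, adjusted 0.631), 0.641 without the 2 outermost libraries and 0.622 within genotypes. Acsm4 and Ncam2 had r = -0.061 (permutation p = 0.865, adjusted 0.865) and rho = -0.055 (permutation p = 0.891, adjusted 0.985), and r was -0.18 without 2 libraries. None of the 15 passed an adjusted p of 0.05.

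The genes whose pattern over the 10 libraries was most like each zone gene were found among 15737 genes with a mean of at least 1 CPM, as a description. For Nqo1 it was Cox8b (r = 0.954, rho = 0.927), followed by Ccdc51 and Fam213b. For Acsm4 it was Ces1a, a carboxylesterase gene (r = 0.935, rho = 0.964), followed by the odorant receptor gene Olfr923 and by Eif2b3. For Ncam2 it was Dcp2, which encodes an mRNA decapping enzyme (r = 0.947, rho = 0.939), then Casc5 and S100z. For Nfia the list was Ifi30 (r = 0.961, rho = 0.867), Zkscan5 and Abi3, and for Nfib it was Mndal (r = 0.894, rho = 0.867), Cep57l1 and H2-K2. For Nfix it was Tgfb1, a growth factor gene (r = 0.941, rho = 0.661), Inpp5a and Fscn1 (r = 0.935, rho = 0.988). None of these 18 places was taken by another zone gene, which the rule left out, and no gene appeared for 2 of them. These values are the top of 15737 searched for each gene and carry no test.

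Receptor genes known by zone were read beside the markers. The list of 13 zone 1 (dorsal) receptors held 10 class I genes such as Olfr578 and Olfr692 and 3 class II genes, and 12 were tested, Olfr547 having too few counts (0 to 8 per library). Their sum was 51.5, 52.4 and 64.0 CPM in WT, 57.4, 78.7 and 48.9 in het, and 49.6, 53.9, 66.0 and 57.6 in homo, with het library 2 highest. Of the 12 none passed an adjusted p of 0.05, with 5 above and 7 below WT in homo and 9 above and 3 below WT in het. The median log2 difference of the 12 was -0.016 in homo and 0.18 in het, each against WT. By edgeR 1 receptor had an unadjusted p under 0.05 between het and WT, Olfr653 (7.76 ± 2.97 against 5.39 ± 1.19 CPM). Another had one between homo and het, Olfr692 (2.07 ± 0.424 against 3.23 ± 0.860 CPM). Their edgeR adjusted p-values were at least 0.999. The 3 receptors of zones 2 to 5, Olfr1395, Olfr2 and Olfr1507, had 0 calls and a median of 0.14 between homo and WT. Olfr1507 was the most abundant, with 67.2 ± 14.1 CPM in WT, 72.0 ± 5.2 in het and 79.2 ± 12.2 in homo (log2 difference of homo and WT 0.24, SE 0.14, unadjusted p = 0.109, edgeR).

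Genes that guide OSN axons along the zonal axis were measured as well. Robo2, the Slit receptor, was at 163 ± 3.21 CPM in WT, 163 ± 5.98 in het and 155 ± 4.36 in homo, and the difference between homo and WT was -0.070 (SE 0.075). Nrp2, the Semaphorin-3F receptor, was at 187 ± 24.2, 177 ± 17.0 and 188 ± 12.9 CPM. Of the 4 genes Robo2, Slit1, Nrp2 and Sema3f 0 were called in any comparison, and their median log2 difference was -0.031 between homo and WT.

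The antioxidant genes driven by NRF2 share their regulator with Nqo1 in other tissues. Nfe2l2, which encodes NRF2, was at 238 ± 10.3 CPM in WT, 234 ± 5.21 in het and 236 ± 15.2 in homo, a difference of -0.016 (SE 0.083) between homo and WT. Slc7a11, the cystine transporter, had the largest difference of the list between homo and WT, 0.21 (SE 0.18, unadjusted p = 0.252, edgeR), at 9.41 ± 2.62 and 10.9 ± 0.536 CPM. All 9 genes of the list were tested, and 0 of 9 passed at an adjusted or an unadjusted p of 0.05 in any comparison. Their summed level was 877 ± 34.7 CPM in WT, 851 ± 30.3 in het and 854 ± 24.4 in homo.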

How the data were processed

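RNA-seq of whole MOE was analysed in 10 libraries, grouped by the genotype in the sample titles. The authors made directional libraries after poly(A) selection and, per the labels, used Trimmomatic 0.36, HISAT2 2.1.0 (mm10), featureCounts of Subread 1.6.2 and DESeq2 1.20.0. The deposited values used were the raw counts per gene. A deposited normalized signal table (counts divided by a size factor per library) served 1 alternative. Annotation and strand setting are not given in the sources used here, so the antisense and other overlapping genes of Ncam2, Nfia, Nfib and Nfix cannot be separated from them.

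Counts were fitted with edgeR 4.0.16 in R 4.3.3 (filterByExpr with a minimum count of 10 and a minimum total of 15, TMM, robust quasi-likelihood, genotype as the only term, all 10 libraries), with Benjamini-Hochberg adjustment over 17197 genes. The SE is the log2 fold change over the root of F. The fit of homo against WT was tested on simulated data with 200 changed genes. It called 0% of them at a 1.25-fold change, 80.5% at 1.5-fold and 99.5% at 2-fold. These shares hold for 200 genes changed at once, and the Benjamini-Hochberg adjustment depends on how many genes change. The fit to the real data called 12 genes between homo and WT. Recovery with so few changed genes was not tested, so the shares do not apply directly to a zone gene. The alternatives were DESeq2 1.42.0, limma 3.58.1 on log2 of the normalized table plus 1, other scalings, filters and sample sets, a Y gene term, a replicate block and leaving out each library. Correlations used log2 CPM with a prior count of 2 and 100000 permutations, and 1 of the 12 marker lists is not reported here. Positions and exon lengths came from GENCODE release M21.

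The genes and lists were chosen with earlier results of these data known, and the zone receptor lists follow the study's in situ probes. The text names the 6 genes, the listed genes, and the 3 genes with the highest r for each of the 6. Same-numbered WT and het libraries deviated together (correlations 0.326, 0.285 and 0.235). Those of WT and homo (-0.099 to -0.012) and of het and homo (-0.15 to 0.16) had lower values. No label states a pairing for any genotype, and libraries of different number were not compared between genotypes. The main fit did not use the replicate number, so its SEs, intervals and p-values for het against WT leave any such pairing out. Only the replicate block used the number. Libraries of 1 genotype were not duplicates (chi-square over its degrees of freedom was 13.9 to 47.0). The study gives its n for these groups as littermates, 3, 3 and 4 as for the libraries, and the labels name no animal.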

Additional observations from a re-analysis of the deposited data

How the results depend on the processing

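No setting called any of the 6 genes in any comparison: DESeq2, DESeq2 size factors or library totals in edgeR, no filter or a mean CPM of at least 1, the 2 genotypes alone, the replicate block, a Y gene term, limma on the normalized table, and each library left out gave 0 of 6. The replicate block moved the count over all genes from 12 to 19 between homo and WT, from 13 to 24 between homo and het and from 12 to 22 for any difference, and in the WT and het libraries alone from 0 to 3. In the fits with homo, the block also joined homo libraries to others of the same number, for which no label states a pairing. The block turned the Acsm4 difference between homo and het from -0.033 to 0.022. The Nfib difference between homo and het, 0.0025, was -0.00017 with DESeq2, -0.00014 with DESeq2 size factors in edgeR, -0.0037 with library totals, -0.0020 with a mean CPM of at least 1 and -0.0017 with limma. All of these lie far inside their intervals.

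Leaving out 1 library turned the sign of a difference in 25 cases against 155 with the same sign. These counts include refits without a library of the third genotype, which left both compared groups whole. The values (log2) ranged as follows. For Nqo1 they ran from -0.17 to 0.10 between het and WT and from -0.25 to 0.030 between homo and WT. For Acsm4 they ran from -0.021 to 0.17 between het and WT, from -0.035 to 0.11 between homo and WT and from -0.11 to 0.078 between homo and het. For Ncam2 they ran from -0.036 to 0.19 between het and WT and from -0.16 to 0.065 between homo and WT, for Nfia from -0.061 to 0.078 between het and WT, and for Nfib from -0.028 to 0.093 between het and WT, from -0.031 to 0.090 between homo and WT and from -0.040 to 0.029 between homo and het. For Nfix they ran from -0.22 to 0.077 between homo and WT and from -0.036 to 0.16 between homo and het. The sign held for Nfix between het and WT, from -0.32 to -0.0091, for Ncam2 between homo and het, from -0.22 to -0.025, for Nqo1 between homo and het, from -0.15 to -0.0073, and for Nfia between homo and het, from 0.018 to 0.15. Nfia was above WT in homo in each of the 10 refits, from 0.060 to 0.11. All its homo libraries were above all its WT libraries, so leaving out 1 library could hardly turn this sign. Where the sign turned, the direction depends on single libraries, and the cause was not tested. Counting error was smaller than the spread between libraries for each of the 6 genes.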
